A study of Mus musculus with 71 samples.

Results

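The 4 mouse genes of the surrogate light chain family, Vpreb1, Vpreb2, Vpreb3 and Igll1, were followed by symbol through every RNA-seq sample of a study on the domains of the transcription factor Pax5. All 4 were found among the 25579 genes of the pro-B cell and progenitor files and among the 24420 genes of the files on earlier lymphoid cells. All cells came from C57BL/6 mice and were sorted directly from bone marrow or thymus. The mice behind wild-type, hemizygous C-terminal and ∆/∆ samples were a few weeks old when cells were sorted. The series held 71 samples, of which 31 pro-B or progenitor samples and 17 earlier lymphoid samples carried expression values. The lymphoid samples were wild type except for 2 Rag2-/- thymocyte samples, which lack a subunit of the recombinase that assembles antigen receptor genes.

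The mutant alleles removed parts of Pax5, written here with ∆ where the labels have D. ∆OP lacks the octapeptide and ∆HD the partial homeodomain, both in the middle of the protein, and ∆OP,HD lacks both. ∆CRD1, ∆CRD2 and ∆CRD1,2 lack 1 or both of the C-terminal regulatory domains. Central mutants were homozygous, and C-terminal mutants were either homozygous or carried the mutant allele over a germline null allele, written "-". Vav-Cre Pax5(fl/fl) progenitors, called ∆/∆ here, lost Pax5 through a Cre recombinase that is active from the haematopoietic stem cell onwards, so that all blood lineages carry the deletion. A separate experiment, called the Prd set here, compared Vav-Cre Pax5(fl/+) pro-B cells (+/∆), Vav-Cre Pax5(Prd/fl) progenitors (Prd/∆), whose remaining allele encodes the DNA-binding paired domain alone, and its own Vav-Cre Pax5(fl/fl) progenitors. All genotypes of the Prd set share Vav-Cre and at least 1 deleted allele. Wild type (+/+) had 5 samples, and every other Pax5 genotype had 2.

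The surrogate light chain stands in for a conventional light chain before one has been made. VpreB, encoded by Vpreb1 or its near copy Vpreb2, pairs with λ5, encoded by Igll1, and both join the µ heavy chain and the signalling subunits Igα and Igβ to form the pre-B cell receptor, which tests the heavy chain and drives the expansion of pre-B cells. Vpreb3 encodes a related protein that stays inside the cell and is not part of the surface receptor. The genes of VpreB and λ5 are transcribed from the earliest B-cell stages onwards under E2A and Ebf1. They are shut off after the pre-B cell receptor has signalled. Pax5 commits cells to the B lineage.

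Reads recovered per sample ranged from 10018678 (∆/∆ replicate 2, the shallowest) to 43784791, and each member was covered by at least 608 reads in every pro-B or progenitor sample. Among pro-B and progenitor samples, no pair of replicates agreed within sampling noise, and each counted as 1 sample. Wild-type, ∆CRD1/- and ∆CRD2/- pro-B cells were sorted by a pro-B cell gate, whereas ∆CRD1,2/- cells and ∆/∆ progenitors were sorted by another, as Lin- Ly6D+ Kit-high B220+ cells. For ∆CRD1,2/∆CRD1,2 the methods describe pro-B cells by the latter gate, but do not state it for the RNA-seq sort. Prd/∆ and ∆/∆ progenitors of the Prd set carry the label of an alternative gate, so gate and genotype cannot be told apart in comparisons between these groups. The sum of 10 B-lineage markers, Pax5 among them, was 9641 to 13077 TPM (a level scaled for gene length and for the depth of the sample) in wild type and 5294 to 5502 TPM in ∆/∆. In wild type all 10 were above 1 TPM in every sample. Over the same samples 6 plasmacytoid dendritic cell markers summed to 138 to 218 TPM in wild type and 674 to 1083 TPM in ∆/∆, and 6 multipotent progenitor markers to 83.8 to 107 TPM and 491 to 583 TPM. The sum of 10 granulocyte and monocyte markers varied widely, from 464 to 5105 TPM in wild type and 516 to 2915 TPM in ∆/∆. It was 3401 to 3962 TPM in ∆OP/∆OP, 842 and 11404 TPM in ∆CRD2/-, and 456 and 5481 TPM in ∆CRD2/∆CRD2. The part of these markers in the comparisons was not tested. In sorted bulk cells, fewer cells of a type and less RNA per cell cannot be told apart. Pax5 transcripts were still counted in ∆/∆, at 1609 and 1697 TPM against 342 to 524 TPM in wild type, so their level does not check the deletion. They are part of the B-lineage sum and raise it in ∆/∆.

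Vpreb1, Vpreb2 and Igll1 lie on chromosome 16 of GRCm38.p6 and Vpreb3 on chromosome 10. Igll1 (3 exons, minus strand, 16860671 to 16863985) ends 4416 bases from Vpreb1 (2 exons, minus strand, 16868401 to 16869255). Vpreb2 (2 exons, plus strand, 17979445 to 17981274) lies 1110190 bases further on, and Vpreb3 (2 exons, plus strand) spans 75943024 to 75949657. The coding sequences of Vpreb1 and Vpreb2, 429 bases each, differ at 9 positions and are 97.9% identical. Coding bases 298 to 387, which hold 5 of the 9 differences in capitals, are shown from RefSeq as the 90 coding bases with the most differences:
Vpreb1: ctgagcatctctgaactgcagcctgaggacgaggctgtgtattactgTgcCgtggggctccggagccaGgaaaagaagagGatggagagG
Vpreb2: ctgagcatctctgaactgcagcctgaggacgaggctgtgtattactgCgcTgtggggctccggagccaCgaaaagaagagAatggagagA
A read that covers no difference between the 2 genes could come from either. Of the 380 windows of 50 bases in the counted Vpreb2 model, 42.6% occur unchanged in the Vpreb1 transcript. Of the 719 windows in the Vpreb1 transcript, 22.5% occur in the counted Vpreb2 model and 32.4% in the whole Vpreb2 gene span. Reads of 50 bases that fell there had no unique alignment and were left out by the authors, so that the TPM of both genes, and of Vpreb2 most, is a lower estimate. The counted Vpreb2 model had 429 bases, coding sequence only, against 768 for Vpreb1, 625 for Vpreb3 and 870 for Igll1.

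The 250 bases before the transcription start in the RefSeq promoter table (GRCm38.p6) are shown for the 3 genes that fell without Pax5, with matches to an E-box (CANNTG, the site type of E2A) and to an Ebf1 core (CCCNNGGG) in capitals:
Vpreb1 (chr16:16869256-16869505, minus strand): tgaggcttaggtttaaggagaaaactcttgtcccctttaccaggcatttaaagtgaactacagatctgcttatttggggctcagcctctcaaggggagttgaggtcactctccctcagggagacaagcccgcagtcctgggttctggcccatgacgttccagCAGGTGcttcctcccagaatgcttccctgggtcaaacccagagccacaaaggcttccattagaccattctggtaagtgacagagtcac
Vpreb3 (chr10:75948050-75948299, plus strand): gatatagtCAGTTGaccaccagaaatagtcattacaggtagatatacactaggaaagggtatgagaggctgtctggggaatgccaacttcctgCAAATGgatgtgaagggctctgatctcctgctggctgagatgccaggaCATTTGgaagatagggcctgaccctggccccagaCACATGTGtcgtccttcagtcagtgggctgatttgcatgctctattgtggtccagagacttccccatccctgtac
Igll1 (chr16:16863986-16864235, minus strand): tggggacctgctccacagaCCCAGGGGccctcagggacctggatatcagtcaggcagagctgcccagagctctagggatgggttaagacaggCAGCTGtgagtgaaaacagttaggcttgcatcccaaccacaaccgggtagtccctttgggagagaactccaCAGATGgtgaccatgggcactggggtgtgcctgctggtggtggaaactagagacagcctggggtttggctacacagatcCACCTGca
Both strands were searched. The Vpreb1 window held 1 E-box, 88 bases before the start. The Vpreb3 window held 5 E-box matches, 2 of which overlap each other. This window lies inside the annotated span of the gene, which begins at 75943024. The Igll1 window held 3 E-boxes and 1 Ebf1 core. Among the 32851 promoters of the table, 72.3% of the windows of 300 bases from 250 before to 50 after the start held an E-box and 13.7% the Ebf1 core, and such matches are descriptions of letters, not of binding. Neither the Ikaros core TGGGAA, present in 25.6% of promoters, nor TATAAA, present in 13.6%, was found in these windows, and no promoter of Vpreb2 is shown because its annotated start is that of the coding sequence.

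In wild-type pro-B cells all 4 genes were highly expressed, and their levels fell in the order Vpreb3, Igll1, Vpreb1 and Vpreb2. Vpreb3 measured 4938, 5151, 5706, 4962 and 5677 TPM in replicates 1 to 5, a mean of 5287 ± 378 TPM (SD, n = 5). Igll1 measured 4067, 4689, 5813, 6029 and 4196 TPM, a mean of 4959 ± 912 TPM (SD, n = 5). The ranges of these 2 genes overlapped. Vpreb1 measured 2011, 2004, 3671, 2873 and 2535 TPM, a mean of 2619 ± 694 TPM (SD, n = 5). Vpreb2 measured 252, 376, 638, 403 and 409 TPM, a mean of 416 ± 139.6 TPM (SD, n = 5), well below every Vpreb1 value. Replicates 3 and 4, sequenced with reads of 100 bases before trimming, gave the highest values of Vpreb1 and Igll1, and replicates 1, 2 and 5, with reads of 50 bases, the lowest. Read length was therefore a term in the comparisons that mixed both kinds of sample. No wild-type sample stood apart from the others for any member by Dixon's test.

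**Figure D1:**
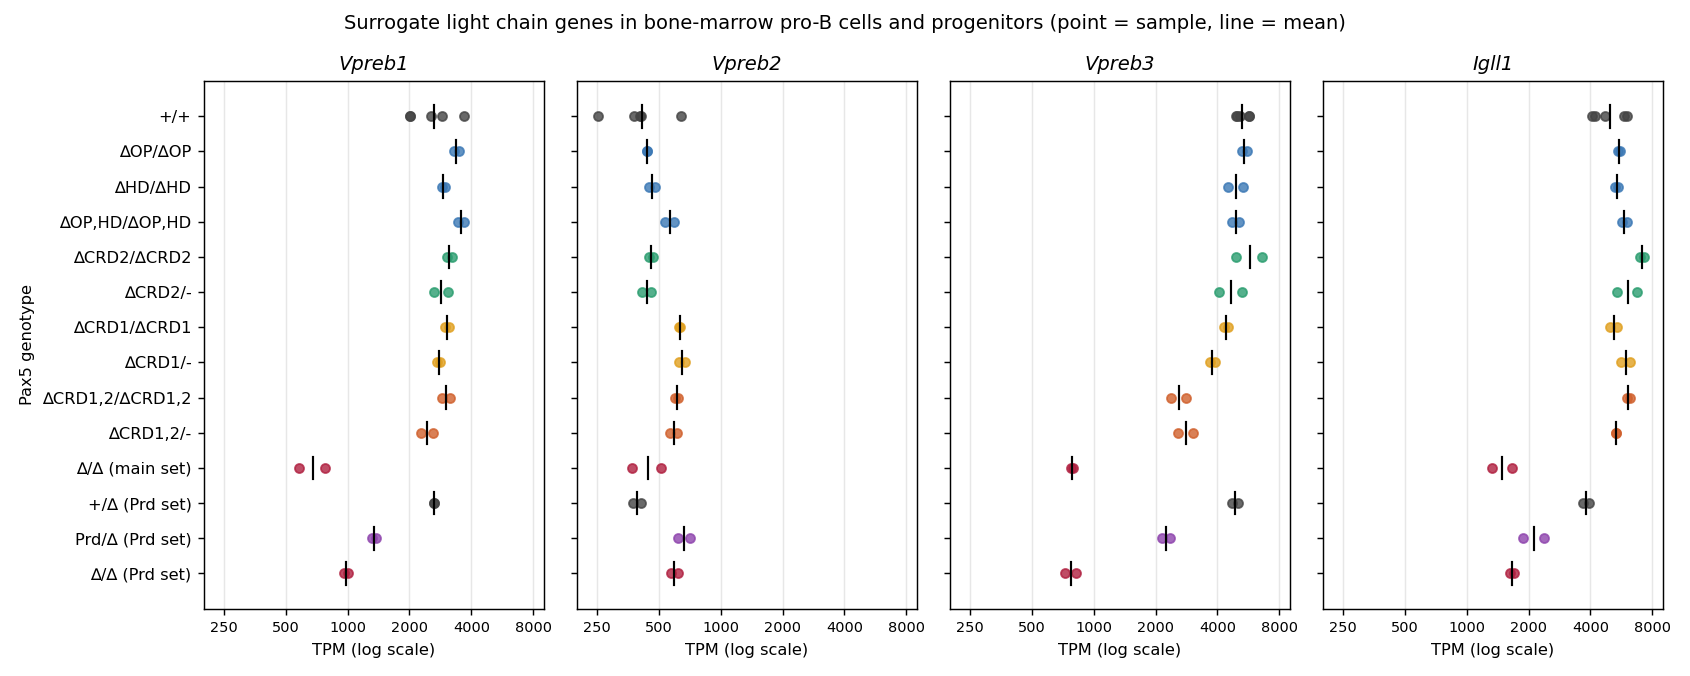
TPM of each member on a log axis in every pro-B and progenitor sample, by Pax5 genotype; points are samples, colours mark groups of genotypes and short lines are means. Vpreb1, Vpreb3 and Igll1 lie lowest in both sets of ∆/∆ progenitors, while Vpreb2 in ∆/∆ (370 to 616 TPM) overlaps wild type (252 to 638 TPM).

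No member passed the test after deletion of the central domains. The first question was whether any member depended on the octapeptide or the homeodomain, which was tested against wild-type replicates 3 and 4 with limma on log2(TPM + 0.1); a gene was called where its p, adjusted by Benjamini-Hochberg over all genes tested, was under 0.05. In ∆OP/∆OP pro-B cells 0 of 4 members were called, against 0.485% of all genes tested. In ∆HD/∆HD 0 of 4 were called against 0.639%, and in ∆OP,HD/∆OP,HD 0 of 4 against 1.22%. No member had an unadjusted p under 0.05 in any of these 3 comparisons, and edgeR on the recovered reads also called 0. Vpreb3 measured 5583 and 5255 TPM in ∆OP/∆OP, 5357 and 4505 TPM in ∆HD/∆HD and 5098 and 4739 TPM in ∆OP,HD/∆OP,HD, against 5706 and 4962 TPM in the 2 wild-type samples. Its log2 fold change in the double deletion was -0.11 with a 95% interval of -0.39 to 0.16. Igll1 had the narrowest interval there, -0.22 to 0.18 around -0.02, and Vpreb2 the widest, -0.28 to 0.58 around 0.15. With 2 samples per genotype, the values leave room for any change inside these intervals. The intervals are not limits of detection, since a call also needed the adjusted p to pass.

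The C-terminal deletions were compared with wild type in the same way. ∆CRD2 had no called member: 0 of 4 in ∆CRD2/- against 0.967% of all genes, and 0 of 4 in ∆CRD2/∆CRD2 against 0.115%, with limma over the 19 samples of the C-terminal set and read length as a term. No member had an unadjusted p under 0.05 in either, and edgeR called 0. Vpreb3 measured 4076 and 5267 TPM in ∆CRD2/- and 6625 and 4954 TPM in ∆CRD2/∆CRD2. Igll1 measured 7303 and 6959 TPM in ∆CRD2/∆CRD2, the highest of the 14 conditions, and its log2 fold change of 0.27 had an interval of -0.06 to 0.59.

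After loss of CRD1, 1 member passed the test in the homozygous cells and none in the hemizygous cells. In ∆CRD1/- pro-B cells 0 of 4 members were called, against 10.9% of all genes. Vpreb3, at 3907 and 3666 TPM, lay below every wild-type sample with a log2 fold change of -0.49 ± 0.17 (SE), and it was the 1 member with an unadjusted p under 0.05 (limma adjusted p = 0.0919). It passed the threshold only where the read length term was dropped (adjusted p = 0.0368), and edgeR called 0. In ∆CRD1/∆CRD1, 1 of 4 members was called, against 7.75% of all genes. Vpreb2 measured 626 and 634 TPM there and 252, 376 and 409 TPM in the 3 wild-type samples of the same read length, a rise of 0.90 ± 0.21 on the log2 scale (SE, limma adjusted p = 0.0157). Its adjusted p rose to 0.0819 with samples of 1 read length only, to 0.131 without ∆CRD1/∆CRD1 replicate 1 and to 0.120 without replicate 2. Vpreb1, at 3117 and 2983 TPM, had a log2 fold change of 0.49 (adjusted p = 0.0785), which passed without wild-type replicate 5 (adjusted p = 0.0322). In ∆CRD1/-, with reads of 100 bases, Vpreb2 measured 624 and 667 TPM, against 638 and 403 TPM in the 2 wild-type samples of the same read length, and its log2 fold change was 0.35 (adjusted p = 0.408).

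Without both C-terminal domains Vpreb3 passed the test as lower, and Vpreb1, Vpreb2 and Igll1 did not pass it. In ∆CRD1,2/- cells Vpreb3 measured 2567 and 3058 TPM, below all wild-type samples, and fell 1.90-fold (log2 fold change -0.93 ± 0.17 SE, limma adjusted p = 0.00144). In ∆CRD1,2/∆CRD1,2 cells it measured 2817 and 2386 TPM and fell 2.05-fold (-1.04 ± 0.17 SE, adjusted p = 0.000612). Both genotypes thus had 1 of 4 members called, a count near the 23.5% and 24.1% of all genes that were called. From the hemizygous cells, and with a fold cut-off above these changes, the study listed Vpreb3 among genes minimally affected by the C-terminal deletions. No difference between members was tested. Igll1, at 5344 and 5312 TPM and at 6004 and 6215 TPM, gave log2 fold changes of -0.15 and 0.05, with intervals of -0.48 to 0.17 and -0.28 to 0.37. Vpreb1 measured 2594 and 2279 TPM in ∆CRD1,2/- (log2 fold change -0.42 ± 0.17 SE, interval -0.79 to -0.05, limma unadjusted p = 0.0302, not called after adjustment) and 3139 and 2874 TPM in ∆CRD1,2/∆CRD1,2 (-0.11, adjusted p = 0.685). These C-terminal comparisons and that of ∆/∆ share the wild-type samples.

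One mutant allele or a pair made no difference that passed the test. Between homozygous and hemizygous cells 0 of 4 members were called for ∆CRD2 (0.224% of all genes), 0 of 4 for ∆CRD1 (0.0289%) and 0 of 4 for ∆CRD1,2 (0.159%), and edgeR also called 0 in each. Vpreb1 in the ∆CRD1 pair was the 1 member with an unadjusted p under 0.05, with a log2 difference of 0.72 between samples of different read length (limma adjusted p = 0.680).

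After complete loss of Pax5, 3 of the 4 genes fell. In ∆/∆ progenitors 3 of 4 members were called, all lower, against 34.9% of all genes tested. The study named Vpreb1 and Vpreb3, on these same samples, as examples of activated genes in a group that passed its cut-offs only in ∆/∆. Their direction is therefore not independent evidence. For most genes of this group the study proposes that Pax5 may regulate them little or not at all, and it names Vpreb3 among those activated by the paired domain. Vpreb3 measured 772 and 795 TPM and fell 6.69-fold (log2 fold change -2.74 ± 0.16 SE, limma adjusted p = 1.37e-08). Vpreb1 measured 779 and 579 TPM and fell 3.23-fold (-1.69 ± 0.16 SE, adjusted p = 1.50e-06). Igll1 measured 1657 and 1325 TPM and fell 2.91-fold (-1.54 ± 0.14 SE, adjusted p = 1.02e-06). For these 3 genes the highest ∆/∆ sample lay below the lowest wild-type sample. How many of all genes separate in this way, here or in the other comparisons, was not counted. Vpreb2 did not follow: it measured 514 and 370 TPM, inside the wild-type range, with a log2 fold change of 0.37 and an interval of -0.08 to 0.81 (adjusted p = 0.198). Summed over the 4 genes, the level was 3723 and 3070 TPM in ∆/∆ and 11269 to 15828 TPM in wild type. All 3 calls held under every alternative, and Vpreb1 and Vpreb2 summed into 1 gene had a log2 fold change of -1.18 (adjusted p = 5.90e-05).

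∆/∆ progenitors were also compared directly with ∆CRD1,2 cells, which, for ∆CRD1,2/- by the study's account, came from the same gate. Against ∆CRD1,2/-, 3 of 4 members were called, all lower in ∆/∆, with 3.65% of all genes called. Against ∆CRD1,2/∆CRD1,2 the same count of 3 of 4 stood beside 7.63%. Vpreb3 was 3.53-fold lower than in ∆CRD1,2/- (adjusted p = 0.000837) and 3.26-fold lower than in ∆CRD1,2/∆CRD1,2 (adjusted p = 0.000571). Igll1 was 2.62-fold and 3.00-fold lower (adjusted p = 0.00222 and 0.000416), and Vpreb1 2.42-fold and 2.99-fold lower (adjusted p = 0.00928 and 0.00108). Vpreb2 differed by 0.14 and 0.10 on the log2 scale, with intervals that spanned 0. With Vpreb1 and Vpreb2 summed, the difference from ∆CRD1,2/- no longer passed (-0.87, adjusted p = 0.0661). Read length differed between the 2 genotypes throughout, 50 bases in ∆/∆ and 100 in ∆CRD1,2, and the term for it rests on the wild-type samples of both kinds. B-lineage markers summed to 5842 to 6351 TPM in ∆CRD1,2/-. This sum includes Pax5, whose transcripts in ∆/∆ stood above wild type, so it does not compare B-lineage content with ∆/∆. Plasmacytoid dendritic cell markers summed to 232 to 271 TPM in ∆CRD1,2/-, against 674 to 1083 TPM in ∆/∆. The part of either list in the differences was not tested.

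**Figure D2:**
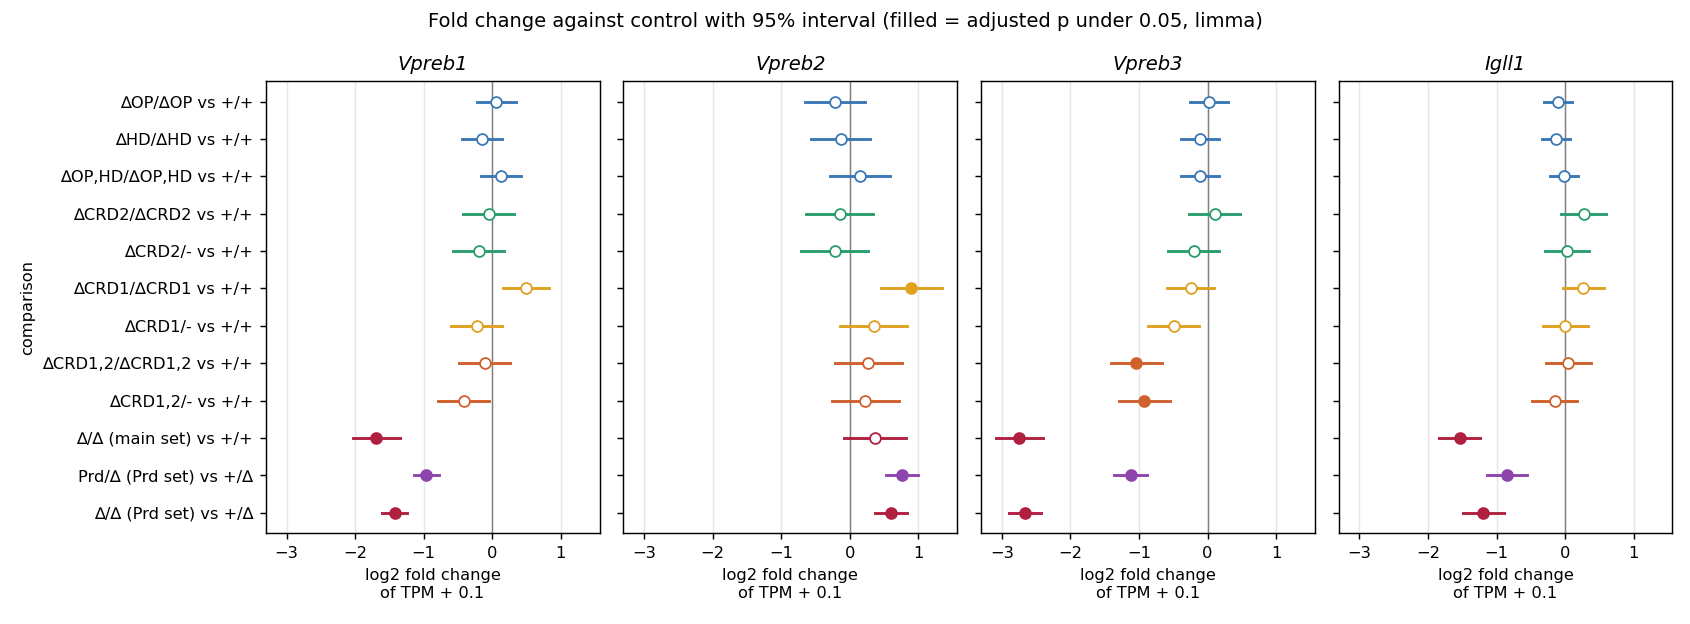
Log2 fold change of TPM + 0.1 with its 95% interval for each member in 12 comparisons with wild type or, in the Prd set, with +/∆; filled points passed an adjusted p under 0.05 in limma. Vpreb3 is the 1 member called lower in both ∆CRD1,2 genotypes, and Vpreb2 lies at or above 0 where the others fall in ∆/∆.

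The Prd set asked what the paired domain alone does, with its own controls and all samples sequenced with reads of 100 bases. In +/∆ pro-B cells Vpreb1 measured 2621 and 2631 TPM, Vpreb2 410 and 375 TPM, Vpreb3 5043 and 4712 TPM, and Igll1 3938 and 3676 TPM. In ∆/∆ progenitors of this set 4 of 4 members were called, against 39.9% of all genes, 3 lower and Vpreb2 higher. Vpreb3 measured 727 and 818 TPM (6.32-fold lower, adjusted p = 2.28e-05), Vpreb1 961 and 1001 TPM (2.68-fold lower, adjusted p = 6.15e-05), and Igll1 1619 and 1707 TPM (2.29-fold lower, adjusted p = 0.000656). Among these 3 genes the order of the folds was that of the other ∆/∆ samples, largest for Vpreb3 and smallest for Igll1. Vpreb2 measured 616 and 573 TPM and was 1.51-fold higher than in +/∆ (log2 fold change 0.60 ± 0.10 SE, adjusted p = 0.00357), a call lost without +/∆ replicate 2 (adjusted p = 0.0540). The 2 sets of ∆/∆ samples share no sample, and the intervals of their log2 fold changes for Vpreb2, -0.08 to 0.81 and 0.37 to 0.83, overlap.

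With the paired domain alone the members lay between the control and the full loss, apart from Vpreb2. In Prd/∆ progenitors 4 of 4 members were called against +/∆, beside 40.7% of all genes, 3 lower and 1 higher. Vpreb3 measured 2341 and 2141 TPM (2.18-fold lower, adjusted p = 0.000350), Vpreb1 1377 and 1317 TPM (1.95-fold lower, adjusted p = 0.000226), and Igll1 2365 and 1887 TPM (1.80-fold lower, adjusted p = 0.00248). Vpreb2 measured 707 and 623 TPM, 1.69-fold above +/∆ (limma adjusted p = 0.00142). Its mean was the highest of the 14 conditions, but its values overlapped those of ∆CRD1/- (624 and 667 TPM), which was not tested against Prd/∆. The comparisons of Prd/∆ and of ∆/∆ share the +/∆ samples.

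Prd/∆ and ∆/∆ progenitors, which carry the same gate label, were compared with each other, and 2 of 4 members were called against 1.97% of all genes, both higher in Prd/∆. From RNA-seq of these same samples and from ChIP-seq, the study named Vpreb3 and Cd79a as activated and bound by the paired domain. The direction for Vpreb3 is therefore not independent evidence. Vpreb3 was 2.90-fold higher (log2 difference 1.54 ± 0.10 SE, adjusted p = 0.00356), and its levels in the 2 genotypes did not overlap. The size held in every fit, between 1.45 and 1.62, but the adjusted p rose to 0.0602 without +/∆ replicate 2, to 0.108 without ∆/∆ replicate 1 and to 0.0777 without ∆/∆ replicate 2. Vpreb1 was 1.37-fold higher (adjusted p = 0.0442), a call that 10 of 15 alternatives lost, edgeR among them (adjusted p = 0.0610), and that without a single sample reached an adjusted p of 0.316 (without ∆/∆ replicate 1). Igll1 gave a log2 difference of 0.35 (adjusted p = 0.205), which passed without Prd/∆ replicate 2 (adjusted p = 0.0295), and Vpreb2 one of 0.16 (adjusted p = 0.404). Summed multipotent progenitor markers were 446 to 448 TPM in Prd/∆ and 391 to 412 TPM in ∆/∆, without overlap, and plasmacytoid dendritic cell markers overlapped; the part of these markers in the differences was not tested.

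The near copies Vpreb1 and Vpreb2 thus differed in proportion between conditions. Vpreb2 made up 11.1% to 15.8% of Vpreb1 plus Vpreb2 TPM in wild type, 13.6% ± 1.88 (SD, n = 5), and 11.2% to 14.8% in the central mutants. In ∆CRD1/- the share was 18.1% and 19.7%, in ∆CRD1/∆CRD1 16.7% and 17.5%, in ∆CRD1,2/- 18.0% and 21.3%, and in ∆CRD1,2/∆CRD1,2 16.5% and 17.3%, so all 8 of these samples lay above the wild-type range. ∆CRD2 samples, at 12.7% to 13.6%, lay inside it. The shares in ∆/∆ were 39.7% and 39.0% in the first set and 39.1% and 36.4% in the Prd set, against 13.5% and 12.5% in +/∆, and 33.9% and 32.1% in Prd/∆. The difference of 25.8 percentage points between ∆/∆ and wild type had an exact permutation p of 0.0476 (two-sided, 2 against 5 samples), the smallest p this design allows. This p rests on the same values as the fold changes above, so it adds no separate evidence, and it took no account of read length. Within the Prd set 2 against 2 samples cannot go below 0.333. The same read rules applied to both genes in every sample, and the share of reads lost to the other copy was not measured.

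Ratios to Igll1 were read in the same way. Vpreb1 plus Vpreb2 over Igll1 was 0.61 ± 0.10 (SD, n = 5) in wild type, 0.78 and 0.72 in ∆/∆, 0.77 and 0.82 in +/∆, 0.88 and 1.03 in Prd/∆ and 0.97 and 0.92 in ∆/∆ of the Prd set. Vpreb3 over Igll1 was 0.82 to 1.35 in wild type, 0.48 and 0.58 in ∆CRD1,2/-, 0.47 and 0.38 in ∆CRD1,2/∆CRD1,2, and 0.47 and 0.60 in ∆/∆. In Prd/∆ it was 0.99 and 1.13, above the 0.45 and 0.48 of its ∆/∆ and below the 1.28 of +/∆.

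**Figure D3:**
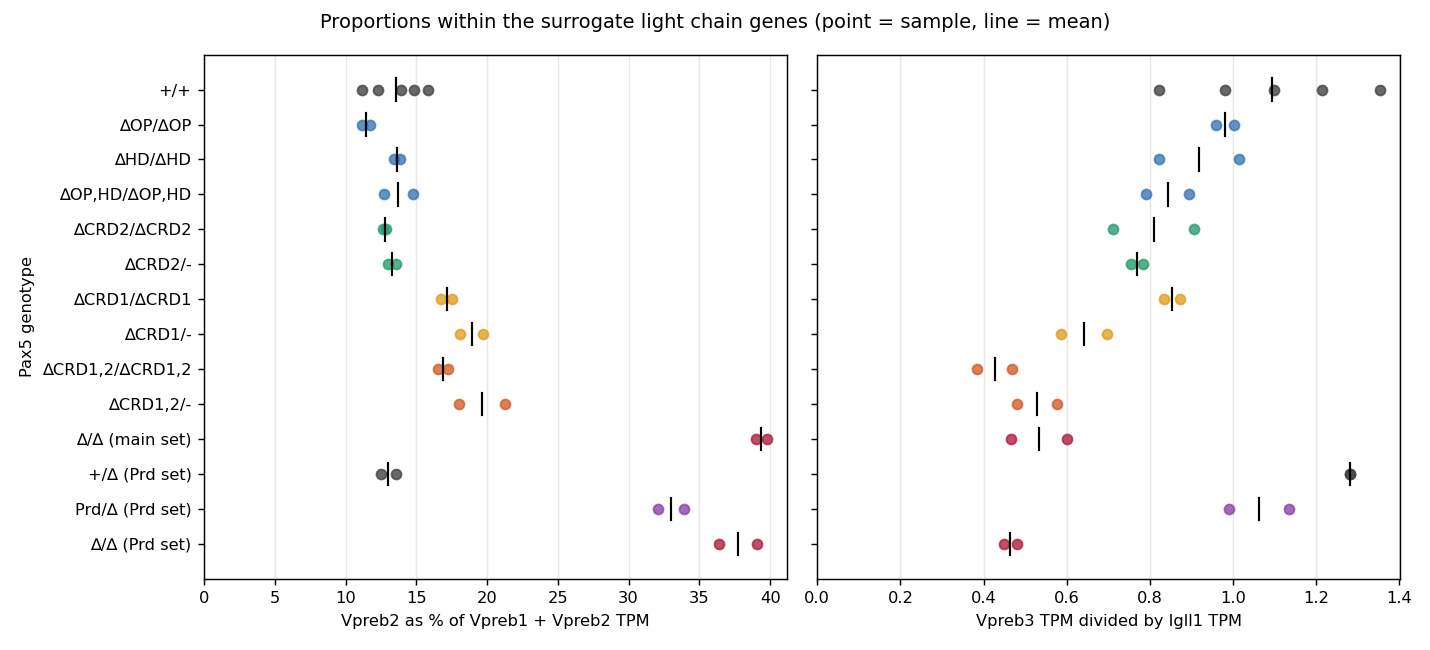
Vpreb2 as a percentage of Vpreb1 plus Vpreb2 TPM (left) and Vpreb3 TPM divided by Igll1 TPM (right) in every sample by Pax5 genotype; points are samples and lines are means. Vpreb2's share is 32.1% or more in Prd/∆ and both ∆/∆ groups and at most 21.3% in all other samples.

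Across the 14 condition means of log2(TPM + 0.1), 2 patterns separated. Vpreb1 and Igll1 had a Pearson r of 0.96, and Igll1 ranked 4 among 9722 other genes for likeness to Vpreb1. Vpreb1 and Vpreb3 had an r of 0.92, Vpreb3 and Igll1 of 0.87, while Vpreb2 had an r of -0.07 with Vpreb1, -0.29 with Vpreb3 and -0.07 with Igll1. These points share libraries, controls and the low values of Prd/∆ and ∆/∆, and no test was made. The gene most like Vpreb3 was Cd79a (r = 0.99), which encodes Igα, followed by Tnfrsf19, Adgrl2, Tpst1 and Eps8 (r = 0.96 to 0.97). The gene most like Vpreb1 was Sit1 (r = 0.99), followed by 6030408B16Rik, Ttll11, Igll1 and 1700072O05Rik. Igll1 was most like 1700072O05Rik, Rfc3, Srp14, Ccdc69 and Fsip1 (r = 0.96 to 0.98), and Vpreb2 was most like Abcb6, Ostf1, Rilpl2, Cacna1h and Gimap3 (r = 0.86 to 0.91).

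**Figure D4:**
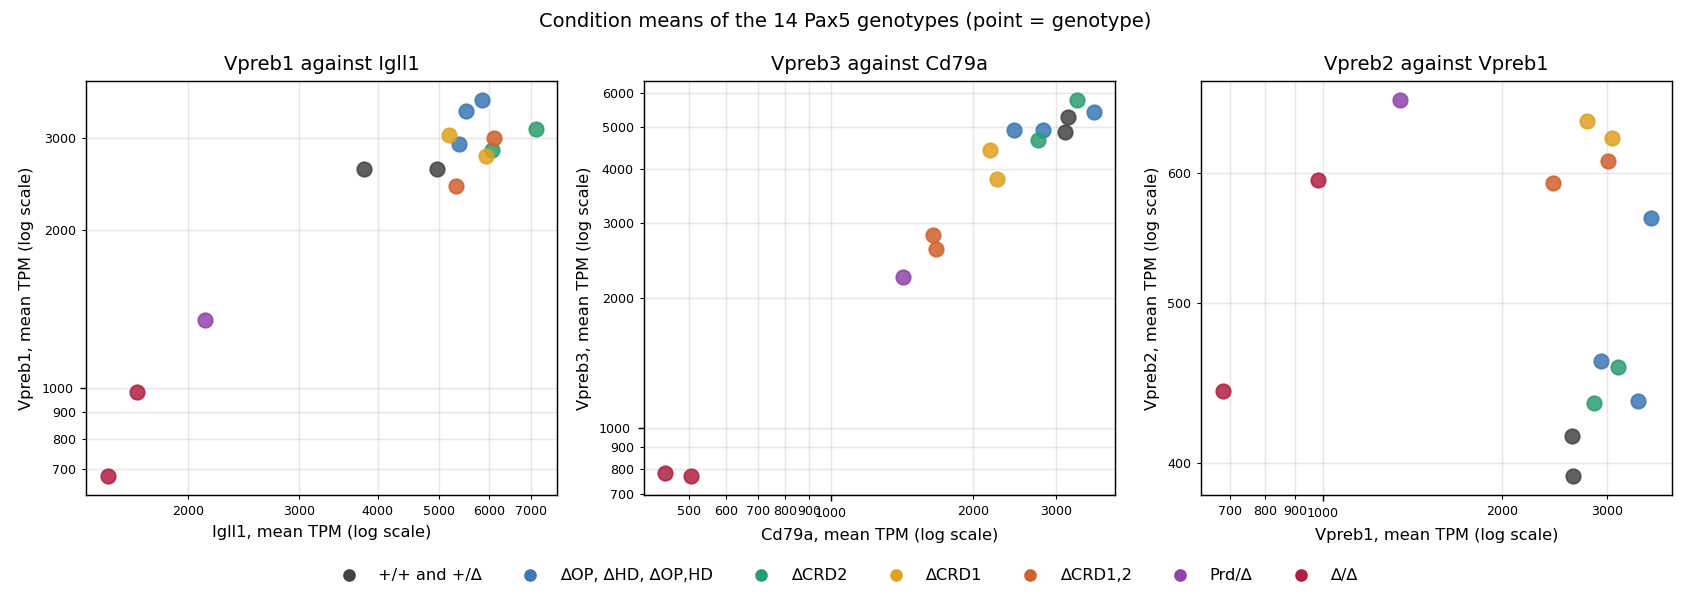
Mean TPM of the 14 conditions on log axes for Vpreb1 against Igll1, Vpreb3 against Cd79a and Vpreb2 against Vpreb1; points are genotypes, coloured by group. The first 2 pairs lie along a line (r = 0.96 and 0.99), and in the Vpreb3 panel the ∆CRD1,2 and Prd/∆ means lie between ∆/∆ and wild type; Vpreb2 shows no such relation to Vpreb1 (r = -0.07).

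Genes beside the members did not all move with them. Top3b, 1467 bases from Vpreb1, was not called in ∆/∆ (log2 fold change 0.12, adjusted p = 0.374) and in ∆/∆ of the Prd set (-0.08, adjusted p = 0.424), while Ppm1f, 27214 bases from Vpreb1, rose in both (log2 fold changes 1.85 and 1.46). Chchd10 encodes a mitochondrial protein and lies 5274 bases from the annotated span of Vpreb3. It was lower with Vpreb3, with log2 fold changes of -2.57 in ∆/∆, -1.37 in ∆CRD1,2/- and -1.25 in ∆CRD1,2/∆CRD1,2. In the Prd set these were -2.53 in ∆/∆ and -1.77 in Prd/∆. The weakly expressed Gm867 and Gm5134 were also lower in ∆/∆ (-1.30 and -1.35). Around Vpreb2, Slc25a1 rose (2.14), Dgcr6 fell (-0.94), and Prodh gave -0.30 (adjusted p = 0.253) in ∆/∆.

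Partners and regulators of the receptor were read from lists of 12 partner and signalling genes, 17 regulators and 10 stage genes. In ∆/∆ against wild type 7 of 12 partner genes fell and 2 rose, with a median log2 fold change of -0.54; among those called were Cd79a (-2.85), the kinase gene Blk (1.42) and the phospholipase gene Plcg2 (1.01). Of the regulators 9 of 17 fell and 4 rose, among them Lef1 (-5.60), Ikzf3 (-4.77), Irf4 (-2.19) and Tcf3, which encodes E2A (-2.12). Of the stage genes 4 rose and 3 fell, with Il2ra at 2.44, Cd2 at -2.05, Rag2 at -1.73 and Cd93 at 1.72. In ∆CRD1,2/- and ∆CRD1,2/∆CRD1,2, 10 and 9 of the 17 regulators fell, and Tcf3 fell by 2.20 and 2.21. In the central mutants at most 2 genes of any of these lists were called. Between Prd/∆ and ∆/∆, 3 of the 39 listed genes were called, all higher in Prd/∆. Irf4 was 2.64-fold and Myc 1.46-fold higher, and Cd79a, named by the study from these same samples, gave a log2 difference of 1.48. All log2 fold changes here come from limma, beside the background shares given above.

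Outside the B lineage the genes were traced in LMPPs, the lymphoid-primed multipotent progenitors of the bone marrow, and in double-negative thymocytes from DN1 to DN3b, with 2 or 3 wild-type samples each. In DN1, DN2a and DN2b the labels give 1 replicate number to 2 samples, which may be repeats of 1 sample; they were fitted as separate samples, and averaging them, an alternative chosen after the data were seen, changed no call of a member. At the DN3a stage T-cell precursors rearrange the Tcrb gene, and cells whose β chain signals through the pre-T cell receptor pass to DN3b. Rag2-/- cells, included as DN3a, cannot rearrange it. The deposited values are TPM-like scores with 2 rows per gene, averaged here, on a scale not comparable with the pro-B files, and their depth is unknown. A low score is read as such, and a gene listed at 0 may have been missed. In thymocytes T-lineage markers summed to scores between 1098 (DN1) and 18272 (Rag2-/- DN3a). The B-lineage list, with 9 genes in these files, was not silent there. It summed to scores between 237 (DN1) and 876 (DN3a), with 2 to 4 genes above 1 in every sample of a stage. Of that list, Cd79a stood at or under 2.13 in every population.

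Vpreb1 was the member seen throughout, above a score of 1 in 16 of 17 samples. It scored 2.38 and 1.88 in LMPPs, 5.02, 3.86 and 2.78 in DN1, 6.99, 5.82 and 5.64 in DN2a, 9.59, 11.5 and 7.35 in DN2b, and 6.50 and 9.35 in DN3a. The samples of DN2b all lay above those of DN2a, and those of DN2a above those of DN1, but no step passed the test. In DN3b it scored 0.99 and 2.55 and fell 4.66-fold from DN3a (log2 fold change -2.22 ± 0.39 SE, limma adjusted p = 0.000298), a call kept in all 28 alternatives. Vpreb3 stayed low, above 1 in 13 of 17 samples and never above 2.36, and it passed the test at no step.

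Igll1 and Vpreb2 were near the floor of the files. Igll1 was above 1 in 5 of 17 samples, 2 of them Rag2-/- DN3a, and Vpreb2 was above 1 in 3 and listed at 0 in 8. Igll1 scored 0.61 and 1.18 in DN3a, and 0.12 in 1 DN3b sample while the other listed it at 0, so no mean is given. Vpreb2 scored 0.99 and 1.62 in DN3a and was listed at 0 in both DN3b samples. Both passed the test between DN3a and DN3b (adjusted p = 0.0222 and 0.0175), Igll1 not without DN3a replicate 2 (0.136) or DN3b replicate 2 (0.152) nor with a pseudocount of 0.01 (0.0502), and Vpreb2 not without any 1 of the 4 samples (0.0514 to 0.0962). In all, 3 of 4 members were called lower in DN3b, against 53.4% of all genes, with a median log2 fold change over all genes of -0.41.

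In Rag2-/- DN3a cells Igll1 scored 6.49 and 6.01, above every other lymphoid sample, the next highest being 1.70 in DN2b. Against wild-type DN3a this was 6.64-fold higher (log2 fold change 2.73 ± 0.90 SE, limma adjusted p = 0.0386), and 1 of 4 members was called against 26.4% of all genes. The call was lost when any 1 of the 4 samples was left out (adjusted p = 0.0909 to 0.203, the highest without DN3a replicate 1), with no filter on low values (0.0574) and with a pseudocount of 0.01 (0.273), although the log2 difference stayed between 1.95 and 3.16. Vpreb1, at 8.58 and 13.1, gave 0.44 (adjusted p = 0.442), and Pax5 was listed at 0 in both samples. Rag2 itself was still counted in these cells (log2 fold change -0.65, adjusted p = 0.0495), so its score does not check the genotype.

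The other steps had no called member in limma: DN1 against LMPP (0 of 4, 18.6% of all genes), DN2a against DN1 (0 of 4, 33.7%), DN2b against DN2a (0 of 4, 18.2%) and DN3a against DN2b (0 of 4, 45.8%). Vpreb1 from LMPP to DN1 was the 1 member with an unadjusted p under 0.05 among them (log2 fold change 0.81, adjusted p = 0.146). Vpreb1 from DN1 to DN2a just passed after scaling by median ratios (log2 fold change 0.84), and Vpreb2 from DN2b to DN3a with a pseudocount of 1 (adjusted p = 0.0391). Over all genes the median log2 fold change was -0.18 from DN1 to DN2a, 0.27 from DN2b to DN3a and -0.18 in Rag2-/- DN3a, and within 0.1 of 0 in the comparisons not named here or above. No count model was run on these files.

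**Figure D5:**
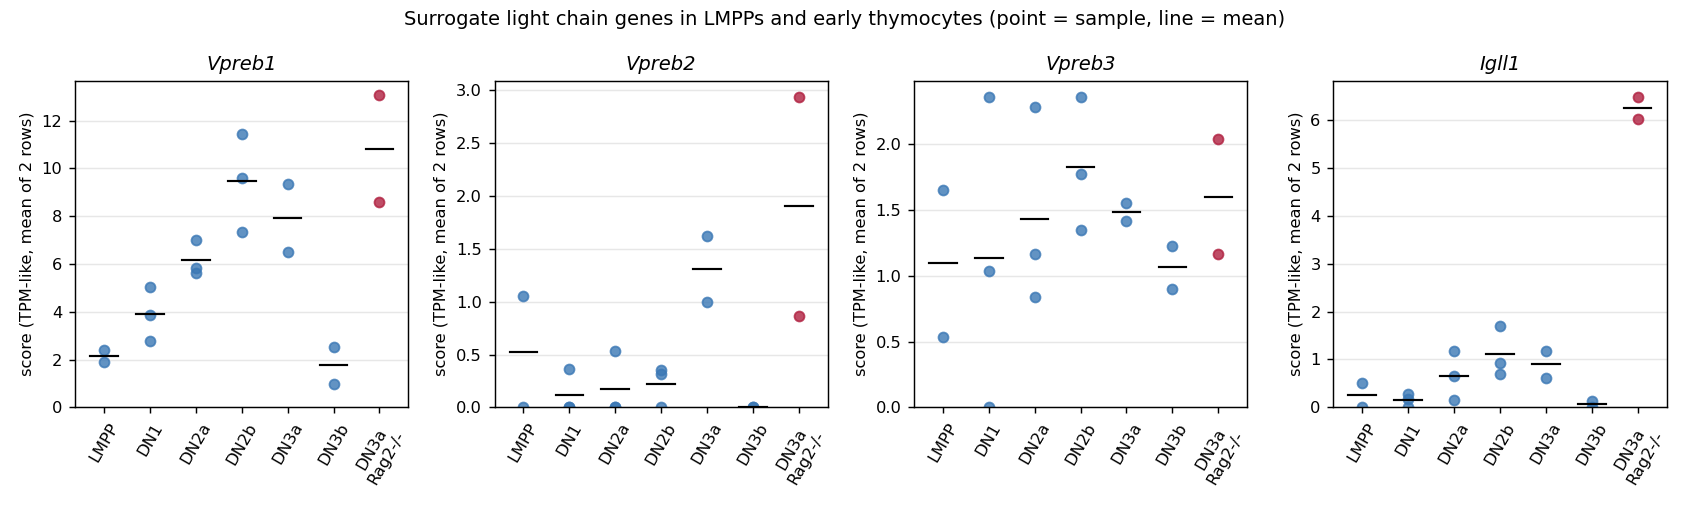
Score of each member in LMPPs, wild-type thymocyte stages and Rag2-/- DN3a cells on linear axes that start at 0; points are samples and lines are means. Vpreb1 is highest in DN2b, DN3a and Rag2-/- DN3a (6.50 to 13.1) and low in DN3b, and Igll1 stands above 6 in Rag2-/- DN3a only.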

How the data were processed

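Poly(A) RNA of sorted mouse cells was sequenced, and reads of 100 bases were trimmed to 50. For the pro-B and Prd sets the authors aligned reads with STAR 2.4.2a to GRCm38/mm10, counted unique alignments per RefSeq gene with Rsubread and deposited TPM, with raw counts for 2 samples. For lymphoid samples (TopHat 1.4.1, mm9, per the submitters' processing notes) the deposited values, 2 rows per gene on a TPM-like scale, were treated as a score: rows were averaged and an exact 1 was taken as 0. In 8 files without gene names the row order of the 23 named files was used, checked against gene lengths.

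Groups came from the labels. limma 3.58.1 (R 4.3.3; trend, two-sided) was fitted on log2(TPM + 0.1) for genes whose TPM exceeded 1 somewhere in the model (8 central, 19 C-terminal, 6 Prd, 17 lymphoid samples), with read length as a term in the C-terminal model. Fold changes are on this scale and understate low genes. The count test, an alternative, was edgeR 4.0.16 on whole reads recovered from TPM and the gene lengths implied by the deposited counts: 100.0% of tested values came out whole within 0.02 read. Other alternatives were pseudocount, filter, trend, scaling, summed Vpreb1 and Vpreb2, left-out samples and replicate block; the code was tested on simulated data, in which limma's calls held more unchanged genes than the threshold of 0.05 allows, most so in the C-terminal model, and edgeR's held fewer there. edgeR called the same members in that model.

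All 4 members are named throughout. Context genes are at most the 4 largest called changes per list (1 gene is not reported here), neighbours the nearest 2 per side where measured, and similar genes the 5 highest correlations among genes whose mean exceeded 10 TPM in at least 1 condition. Members and lists were chosen with earlier results of these data known. Nothing says whether replicates are separate mice, so p-values measure the spread between samples.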

Additional observations from a re-analysis of the deposited data

How the results depend on the processing

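Of the 26 member fold changes called in the main fits, none changed sign in any of 603 alternative values, and 570 of these stayed past the threshold; 64 values that were called in neither fit changed sign. For ∆CRD1/- the number of members called was 1 without the read length term (main 0). For ∆CRD1/∆CRD1 (main 1) it was 0 with Vpreb1 and Vpreb2 summed, without the read length term, with samples of 1 read length and with the replicate block within 1 read length, and 0 to 2 with 1 sample left out. For Prd/∆ against ∆/∆ (main 2) it was 1 with no filter on low values, no trend, median-ratio scaling, the sum, edgeR and the replicate block, and 0 to 3 with 1 sample left out. For DN2a against DN1 it was 1 with median-ratio scaling, and for DN3a against DN2b 1 with a pseudocount of 1 (main 0 in both). For DN3b against DN3a (main 3) it was 2 with a pseudocount of 0.01, with a minimum TPM of 5 or with the sum, and 1 to 3 with 1 sample left out. With the sum, which has 1 member fewer, it was 2 for ∆/∆ against ∆CRD1,2/- (main 3) and 3 for ∆/∆ and Prd/∆ against +/∆ (main 4 in both), and for ∆/∆ against +/∆ it was 3 without +/∆ replicate 2. For Rag2-/- DN3a (main 1) it was 0 with a pseudocount of 0.01 or no filter, and 0 to 1 with 1 sample left out. Where leaving out a sample left 1 in a group, that sample was assumed to vary like the other groups. The causes were not tested.

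Replicate numbers did not pair the samples: correlations of same-numbered deviations ran from -0.29 to 0.18, and the block changed no other count of members called. For the central mutants no paired analysis was possible because wild-type replicates 3 and 4 share no number with the central mutants. Depth limits Vpreb2 most, with 608 reads in the shallowest sample, and the lymphoid scores, whose depth is unknown.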
